A study of Mus musculus with 6 samples.

Results

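The lysosomal cathepsins described here are 9 mouse genes, Ctsa, Ctsb, Ctsc, Ctsd, Ctsh, Ctsk, Ctsl, Ctss and Ctsz, which were chosen by symbol and make up 9 of the 32285 genes counted. All 9 symbols were found once each. Cathepsins are the main proteases of the lysosome. They are made as inactive precursors, carried to the lysosome mostly by mannose 6-phosphate receptors, and activated there in acid. In macrophages they break down engulfed cells and proteins and trim the invariant chain that guards class II antigen presentation, and after a myocardial infarction some are also released and cut matrix. Cystatins, stefins and some serpins hold them in check outside the lysosome.

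The measurements came from single-cell RNA sequencing (10x Genomics 3' chemistry) of the non-cardiomyocyte cells of mouse ventricles. Male mice of 8 to 12 weeks were either wild type (WT, strain C57BL/6JRj) or Trpm4 knockouts (KO, strain B6.Cg-Trpm4tm1.2-PG). Trpm4 encodes a calcium-activated cation channel of the cell membrane. Each genotype was sampled 24 h after a sham operation, 24 h after the left anterior descending coronary artery (LAD) was tied off, and 72 h after this ligation, with no sham at 72 h. Each of these 6 groups is 1 library made from 4 pooled hearts, digested with thermolysin and papain, filtered and sorted for live cells. With 1 library per group there is no replicate: no test was possible, mice cannot be told apart within a library, genotype cannot be told apart from strain, and every difference below is one between 2 libraries. Intervals in brackets are exact 95% Poisson intervals, which cover counting error only, and UMIs (unique molecular identifiers) count captured transcripts.

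The 6 libraries held 3625 to 7286 cells and 20995280 to 45649061 UMIs each. Cells kept after filtering numbered 32085, and their median depth was 1350 UMIs in KO 72 h against 3073 to 8011 in the other libraries. The KO 72 h library stood apart in a second way: summed UMIs of 12 monocyte/macrophage marker genes were high in nearly all of its cell classes, as given below beside each result. Of 34822 distinct barcodes, 118 occurred in 2 libraries. Trpm4 itself was at 8.79 CPM (counts per 1000000 UMIs) over all deposited cells in WT sham and 6.20 in KO sham, 5.52 and 3.46 at 24 h, and 4.29 and 2.57 at 72 h. It was lower in KO at each time but not at 0, and since the counted 3' end may lie outside the deleted part, these values do not check the genotype.

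Cells were clustered without the 9 cathepsins, and clusters were named from marker lists, so that each class name means cells with those markers (macrophage-like, fibroblast-like and so on; the suffix is left out below). A level is a gene's UMIs over all UMIs of a class in a library, given in CPM. A gene was called higher or lower in a pair of libraries when its levels differed by at least 1.5-fold and the pair held at least 50 of its UMIs. Values written as a run of 6 follow the order WT sham, KO sham, WT 24 h, KO 24 h, WT 72 h and KO 72 h. Levels are compared only within a gene.

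Across cell classes, 7 of the 9 cathepsins had their highest median level in monocytes and macrophages, which are engulfing cells rich in lysosomes. The exceptions were Ctsh, whose median over libraries was 758 in dendritic cells and 531 in monocytes/macrophages, and Ctsk, whose median was 43.5 in fibroblasts and 11.1 in endothelial cells. The 9 genes together took 0.771% to 1.54% of all monocyte/macrophage UMIs, against 0.376% to 0.529% in dendritic cells and 0.189% to 0.316% in neutrophils. In fibroblasts they took 0.148% to 0.192% in 5 libraries and 0.524% in KO 72 h, and in endothelial cells 0.116% to 0.191% in 5 libraries and 0.326% in KO 72 h. The monocyte/macrophage class numbered 1116, 847, 703, 1592, 2357 and 3088 cells, or 21.2%, 14.9%, 20.9%, 24.2%, 53.7% and 45.3% of kept cells. Its 12 markers summed to between 15943 and 24289.6 CPM in the 6 libraries.

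**Figure D1:**
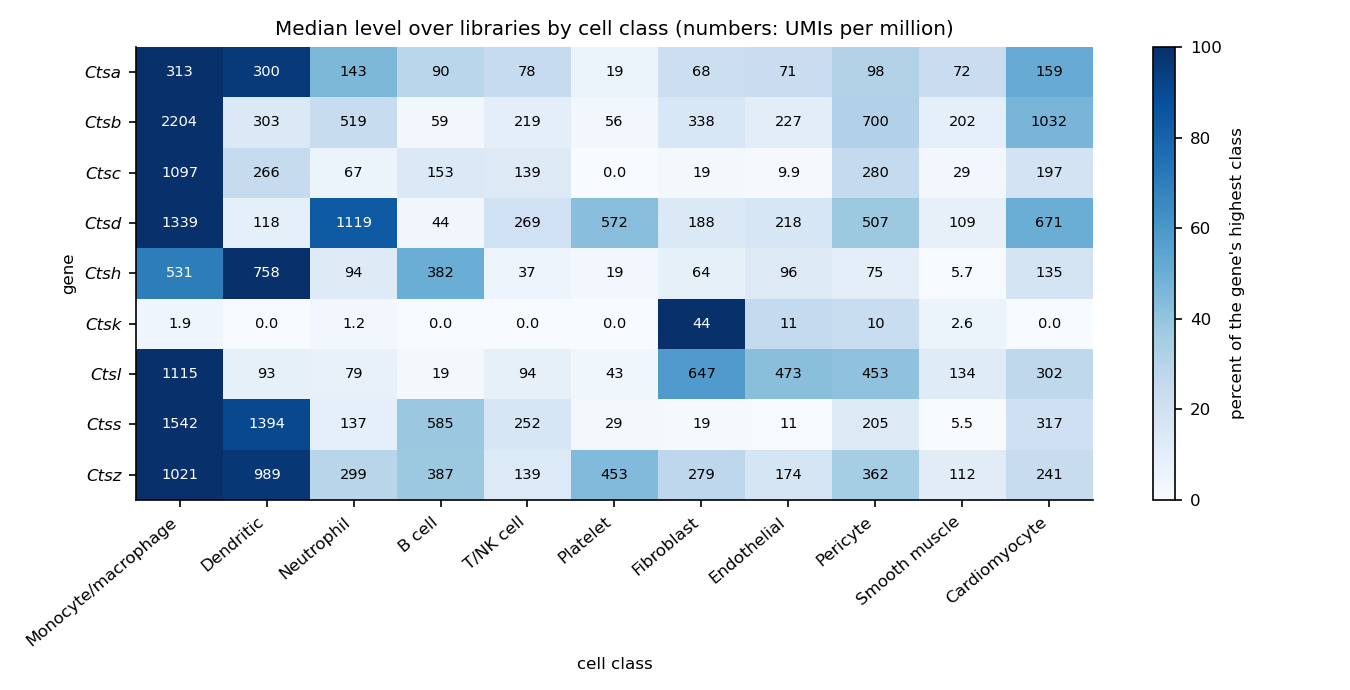
Level of each cathepsin (number in each cell, median CPM over libraries with at least 50 cells of the class) by cell class; colour gives the percent of the gene's highest class. Monocytes/macrophages lead for 7 of 9 genes, dendritic cells for Ctsh and fibroblasts for Ctsk.

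The order of classes was clear of the spread between libraries at its top for only 2 genes. Ctsc encodes dipeptidyl peptidase I, which activates the serine proteases of granules by removing their first residues. Its lowest monocyte/macrophage level, 1009.7, lay above the highest level of the next class, 753 in pericytes. Ctsk encodes a collagen-cutting endopeptidase best known from osteoclasts. Its lowest fibroblast level, 35.8, lay above every endothelial level. For the other 7 genes the first class and the next one overlapped. Ctsd, the main aspartic protease of the lysosome, had medians of 1339 in monocytes/macrophages and 1119 in neutrophils. Ctsa, a serine carboxypeptidase that also protects other hydrolases, had medians of 313 in monocytes/macrophages and 299.9 in dendritic cells. Ctss, an endopeptidase of antigen-presenting cells that cuts the invariant chain, had 1542 in monocytes/macrophages, 1394 in dendritic cells and 585 in B cells. Ctsz, a carboxypeptidase, had 1021 and 989 in the first pair of these. Ctsl, a broad endopeptidase, had 1115 in monocytes/macrophages, 647 in fibroblasts and 473 in endothelial cells. Ctsb, an endopeptidase with carboxypeptidase activity, had 2204 in monocytes/macrophages and 1032 in cardiomyocytes. A fine mesh was used to remove cardiomyocytes, which left 13 to 179 cells with their markers per library. Their levels, like those of pericytes and T/NK cells, moved with the monocyte/macrophage markers in them. In pericytes, for example, Ctss was at 3.35 in WT sham, 235 in KO sham and 1059 in KO 72 h, and the 12 markers summed to 147, 3240 and 11570 CPM in the same libraries. The part of such macrophage RNA in these levels was not tested.

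The 9 genes lie on 6 chromosomes of GRCm38 (GENCODE vM21 annotation). Ctsk (chr3:95499256-95509362) and Ctss (chr3:95526786-95556403) are neighbours on the plus strand, 17423 bases apart. Yet among all pairs of members their levels were the least alike over 36 library-and-class sums, with Pearson's r of -0.354, while Ctsc (chr7:88278085-88310888, plus strand) and Ctss were the most alike, with r of 0.936. These sums share libraries and depth, so the correlations are descriptions without a test. Ctsd lies at chr7:142375911-142388038 on the minus strand, Ctsa at chr2:164832873-164841032 on the plus strand and Ctsl at chr13:64359337-64370890 on the minus strand. The 3' parts of Ctsa and Ctsb overlap genes annotated on the other strand, Pltp by 1515 bases for Ctsa and Fdft1 by 774 bases for Ctsb, and whether the counting used strand is not given in the sources used here. Ctsd shares 6757 bases with Gm49369, annotated on the same strand. Gm49369 is not among the genes counted, so the counts cannot tell its reads from those of Ctsd.

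The E-box core CACGTG, which TFEB, TFE3 and MITF bind at many lysosomal genes, was searched in RefSeq promoter windows of GRCm38.p6, from 250 bases before to 50 bases after a start. CACGTG reads the same on both strands, as does the longer TCACGTGA, which always contains it. Windows were found for 7 of the 9 genes. CACGTG was in 7.15% of 32851 windows and TCACGTGA in 0.974%. Counted by gene, 8.09% of 27025 genes held CACGTG and 1.12% TCACGTGA. Among the members, Ctsa, Ctsd and Ctsl held CACGTG, and Ctsa and Ctsd also held TCACGTGA. The stretches shown are those of the members with a match. In macrophages Ctsa and Ctsd were higher at 72 h than at 24 h (below), while Ctsl was lower in KO. Ctsk and Ctss, whose windows held no match, were also higher at 72 h in WT. The core is in capitals, and each is written 5' to 3' on the gene's strand. The RefSeq starts used for Ctsa, Ctsd and Ctsl all lie inside the genes as GENCODE annotates them. The first Ctsd stretch lies before the annotated gene, and the other stretches lie inside the annotated genes. Another Ctsa window, at the annotated gene start, held no match.
Ctsa, chr2:164833749-164833772, plus strand: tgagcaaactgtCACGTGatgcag
Ctsd, chr7:142388055-142388077, minus strand: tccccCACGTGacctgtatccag
Ctsd, chr7:142387908-142387937, minus strand: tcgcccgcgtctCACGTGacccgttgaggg
Ctsl, chr13:64370739-64370768, minus strand: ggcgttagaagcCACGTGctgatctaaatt
In Ctsd the core began 245 and 98 bases before the start, in Ctsl 236 bases and in Ctsa 12 bases before it. A second Ctsa match began after the start. No match was found in the windows of Ctsc, Ctsk, Ctss and Ctsz, which says only that these letters are not in those windows. Among 38 other lysosomal genes of the lists used here, 13 (34.2%) held CACGTG and 7 (18.4%) TCACGTGA. A match is a description of the sequence and not a binding site.

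In monocytes and macrophages, the endopeptidases Ctsb and Ctss were higher at 72 h than at 24 h after ligation in WT, and Ctsb also in KO, while Ctsl was lower at 72 h in KO. Ctsb stood at 1968, 2439.9, 1519, 1649.5, 4481 and 3272 CPM. Both 72 h libraries were above all 4 others, and the lowest values were those of 24 h. The 72 h level was 2.95-fold [2.90, 3.00] the 24 h level in WT and 1.98-fold [1.95, 2.01] in KO. For Ctss the levels were 1338, 1399, 1384, 1685, 2731 and 2326. Here too the 72 h libraries were highest, by 1.97-fold [1.94, 2.01] over 24 h in WT, while the KO ratio of 1.38 stayed under the 1.5-fold limit. Ctsl ran differently, at 938, 1134, 1457, 1654, 1096 and 714. Its 2 highest levels were those of 24 h after ligation and its lowest was KO 72 h. In KO, Ctsl at 72 h was 0.431 [0.421, 0.442] of its 24 h level, and in WT 0.752, which is within 1.5-fold. With doublets kept these ratios were 0.838 and 1.61. Clusters with Arg1 among their leading genes then lost their name, and the part of this in the ratios was not tested.

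The aspartic Ctsd and the serine Ctsa were higher at 72 h than at 24 h in both genotypes. Ctsd was at 1364, 1314, 785, 1256, 3110.3 and 2012 CPM in monocytes/macrophages. WT 24 h was the lowest library and WT 72 h the highest, 3.96-fold [3.87, 4.06] apart. In KO the step from 24 h to 72 h was 1.60-fold [1.57, 1.63]. Ctsa was at 323, 303, 247, 297, 574 and 471, with both 72 h libraries above the rest. Its ratio of 72 h to 24 h was 2.33 [2.23, 2.43] in WT and 1.58 [1.53, 1.64] in KO.

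Of the exopeptidases, Ctsh, an aminopeptidase, was at 462, 446, 398, 600.2, 806 and 683. Its 72 h level was 2.02-fold [1.95, 2.10] the 24 h level in WT and 1.14-fold in KO. Ctsc, at 1120.1, 1074, 1009.7, 1169.6, 1313 and 1039.5, and Ctsz, at 1003, 972, 907, 1111, 1242 and 1038, stayed within 1.5-fold in all 7 comparisons of this class. Their highest levels were in WT 72 h and their lowest in WT 24 h. Counted over the class, 6 of 9 members were called higher at 72 h than at 24 h in WT and none lower, where 20.8% of all genes tested were higher and 17.4% lower. In KO, 4 of 9 were higher and 1 lower, where 18.9% of genes were higher and 6.78% lower. The median log2 ratio of the 9 was 1.02 in WT and 0.47 in KO, beside 0.02 and 0.12 over all genes tested. Most of this class came from different clusters at the 2 times, as described below.

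**Figure D2:**
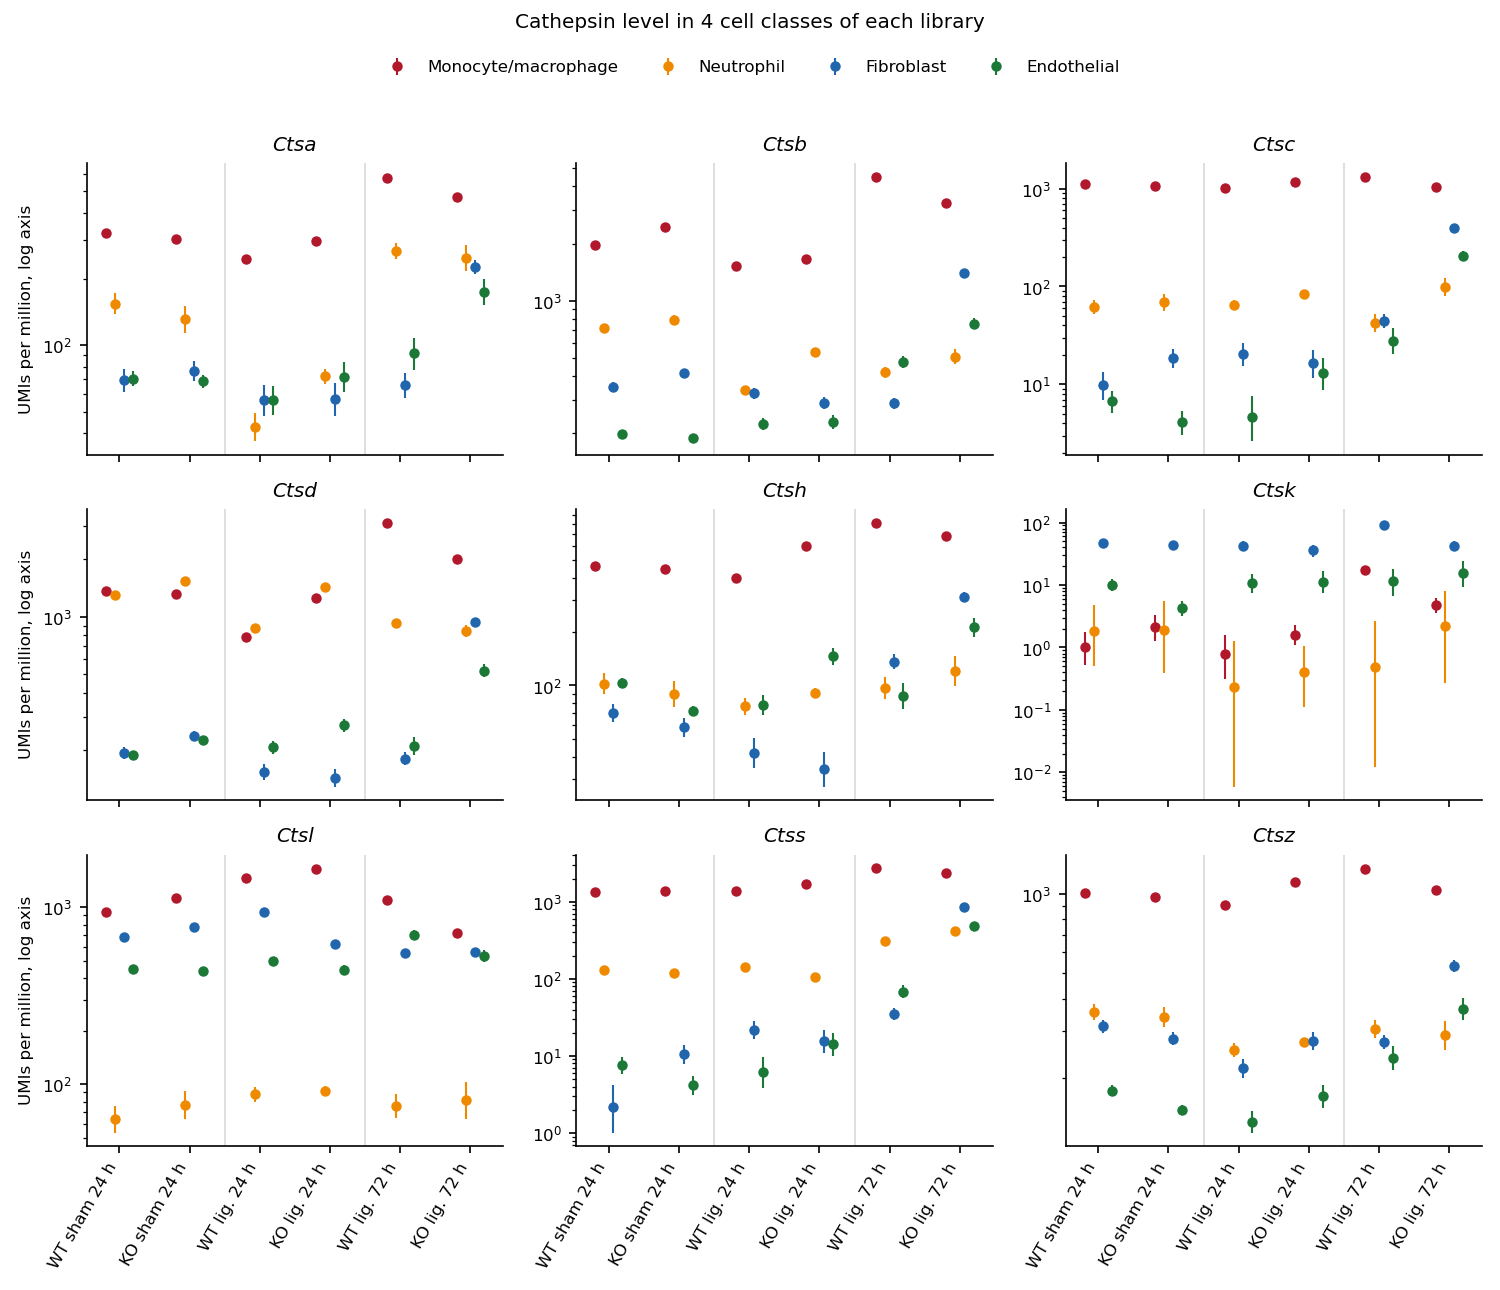
Level of each cathepsin (CPM, log axis) in monocytes/macrophages, neutrophils, fibroblasts and endothelial cells of each library (1 point per library and class; error bars are exact 95% Poisson intervals). In monocytes/macrophages Ctsa, Ctsb, Ctsd and Ctss are highest in the 72 h libraries and Ctsl in the 24 h ligation libraries; the fibroblast and endothelial levels of Ctss and Ctsc are highest in KO 72 h, and the macrophage Ctsk level of WT 72 h rests mainly on 1 barcode.

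Ctsk is a special case. Its monocyte/macrophage levels were 1.0, 2.1, 0.78, 1.6, 17.3 and 4.7 CPM, and the WT ratio of 72 h to 24 h was 22.1 [10.7, 55.3]. Of the 540 Ctsk UMIs in WT 72 h macrophages, 419 (77.6%) came from 1 barcode, and the next barcode had 16. That barcode had 49670 UMIs and 5673 genes. It held 207 UMIs of Acp5, the tartrate-resistant acid phosphatase of osteoclasts, 36 of the proton pump subunit Atp6v0d2, 9 of Dcstamp and 8 of Ocstamp, both of which act in cell fusion, and 11 of Mmp9. It had 17 UMIs of Csf1r, the receptor that macrophages and osteoclasts need, and 0 of the macrophage genes C1qa and Adgre1. It also had 0 UMIs of the fibroblast genes Col1a1, Col1a2, Dcn, Pdgfra and Postn. Whether it is 1 cell cannot be told from its counts alone. Without that barcode the WT 72 h level was 3.89, the ratio to 24 h was 4.97, and the ratio of KO to WT at 72 h was 1.22 where it had been 0.274.

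**Figure D3:**
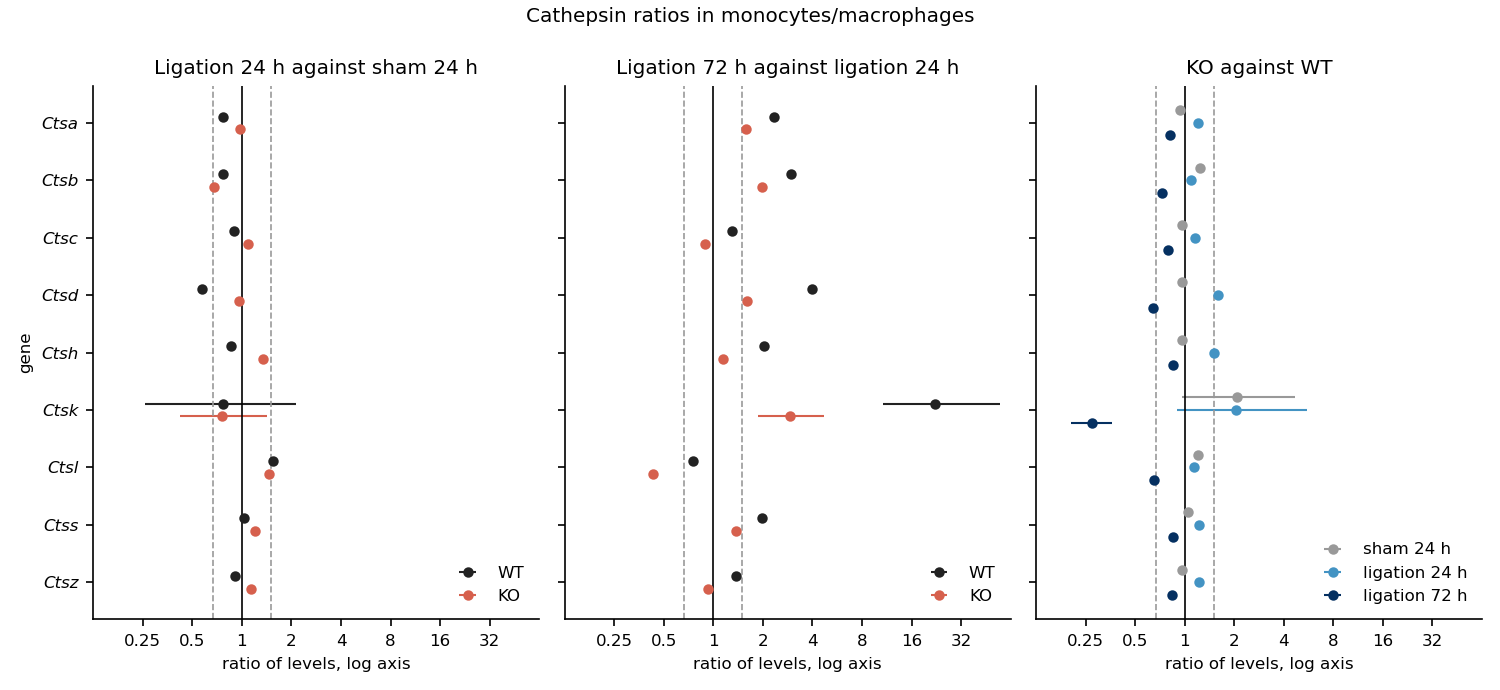
Ratio of levels in monocytes/macrophages for each cathepsin in the 7 comparisons (log axis; error bars are exact 95% intervals, dashed lines mark 1.5-fold). Ctsd is 3.96-fold higher in WT at 72 h than at 24 h and 1.60-fold in KO, and the KO against WT ratios lie above 1 at 24 h and below 1 at 72 h after ligation; at 72 h the Ctsk ratio is above 1 without 1 barcode.

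Ligation at 24 h against sham touched fewer members. In WT macrophages Ctsl was 1.55-fold [1.52, 1.59] higher than in sham and Ctsd was at 0.576 [0.560, 0.592] of it, 1 member called in each direction, where 6.11% of genes were higher and 11.8% lower. Ctsa (0.765), Ctsb (0.772), Ctsh (0.862), Ctsc (0.901), Ctsz (0.904) and Ctss (1.03) stayed within 1.5-fold, and Ctsk had too few UMIs. In KO no member was called higher and none lower among 9, where 3.89% of genes were higher and 24.4% lower. The nearest to the limit were Ctsb at 0.676 [0.665, 0.688] and Ctsl at 1.46 [1.43, 1.49]. Over all genes tested the median log2 ratio was -0.28 in that comparison, and relative to it Ctsl (1.77) and Ctsh (1.64, where it was 1.35) passed the limit. The call of Ctsl in WT depended on the clustering: the ratio was 1.44 at the finer clustering and close to 1 when doublets were kept. Clusters with Arg1 and Ccl24 among their leading genes then lost their name, and the part of this in the ratio was not tested.

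Between genotypes, the members lay on opposite sides at the 2 times after ligation. At sham the KO to WT ratios in monocytes/macrophages ran from 0.94 to 1.24 for the 8 members tested, and none was called, where 5.64% of genes were higher and 1.45% lower. At 24 h after ligation all 8 tested members had ratios above 1. Ctsd, at 1.60 [1.56, 1.64], and Ctsh, at 1.51 [1.45, 1.56], were called higher, where 2.61% of genes were higher and 8.7% lower. The Ctsh call was lost in 5 of 13 alternative settings, with ratios from 1.25 to 1.64, and Ctsd ranged from 1.51 to 1.77. At 72 h all 9 members had ratios below 1. Ctsk, Ctsd, at 0.647 [0.638, 0.656], and Ctsl, at 0.651 [0.635, 0.667], were called lower, where 3.01% of genes were lower and 8.12% higher. Ctsk was on the other side without the 1 barcode. The calls of Ctsd and Ctsl at 72 h were lost when cells were thinned to 1000 UMIs each (0.706 and 0.71) and when CPM were averaged over cells (0.686 and 0.678), and that of Ctsl also when mitochondrial, ribosomal protein and hemoglobin genes were left out of the total (0.668). The other 6 ran from 0.730 for Ctsb to 0.852 for Ctss. Neutrophil marker RNA in these cells also differed between libraries, at 407, 540, 1856, 2797, 189 and 2055 CPM, and its part in the ratios was not tested. The comparisons at 24 h against sham, 72 h against 24 h and KO against WT share libraries, so a low level in WT 24 h enters 3 of them.

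Within the macrophage class the members did not mark the same clusters. Ctsb, Ctsd and Ctsa were highest in a cluster with C1qa, Spp1 and Trem2 (lipid-handling macrophage-like), at 5713, 4151 and 614 CPM. Ctss, Ctsc and Ctsz were highest in a cluster with Ccl12 and Ccl8 (interferon-responding-like), at 3887, 1616 and 1451, where Ctsb was at 4738. The name of that cluster rests on a thin margin. Its mean marker score was 0.651 for interferon-responding and 0.630 for lipid-handling cells. Ctsl was highest, at 1907, in a cluster led by Arg1 and Ccl24. Ctsh was at 942 in the interferon-responding cluster and at 932 in the class II-high cluster, where Ctss was at 2590.2. A classical monocyte-like cluster had Ctss at 2242, Ctsb at 1127 and Ctsd at 705. In the non-classical monocyte-like cluster led by Ear2, Ctsl was at 38.0, Ctsd at 212 and Ctsc at 268, each the lowest of these clusters. The resident macrophage-like cluster had Ctsc at 1449 and Ctsd at 802. Ctsk was highest, at 177, in the cluster that holds the barcode described above. Of that cluster's 427 Ctsk UMIs, 419 came from that barcode. In the other clusters of the class Ctsk was at 0 to 7.42. These clusters were drawn from the same cells, so these levels are descriptions. They also pool libraries, so cluster and time are mixed: 583 of the 1164 lipid-handling cells came from WT 72 h and 397 from KO 72 h. Among the clusters with at least 50 cells in WT 72 h alone, Ctsb (6529), Ctsd (4883) and Ctsa (688) were again highest in the lipid-handling cluster, Ctss (4030) in the interferon-responding one and Ctsl (1733) in the one led by Arg1 and Ccl24. The same clusters led for these 5 genes in KO 72 h alone.

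**Figure D4:**
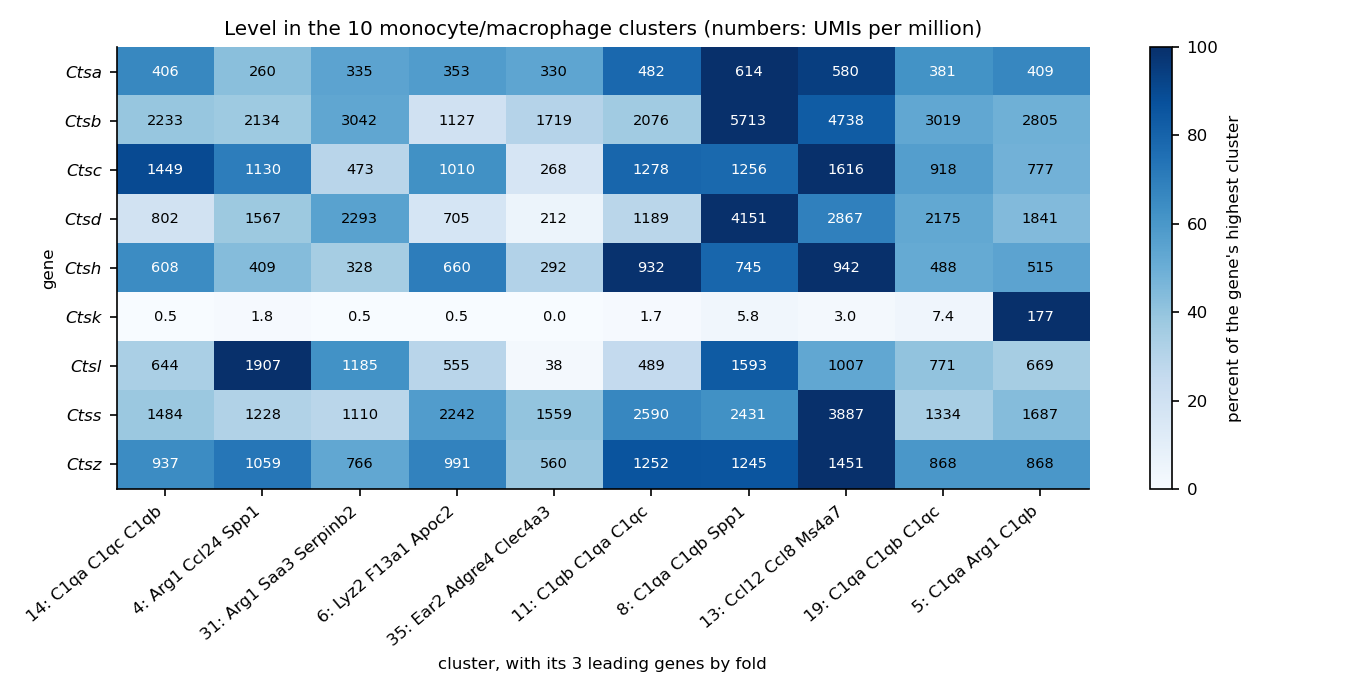
Level of each cathepsin (number in each cell, CPM) in the 10 monocyte/macrophage clusters, each given with its 3 leading genes; colour gives the percent of the gene's highest cluster. Ctsa, Ctsb and Ctsd peak at 614, 5713 and 4151 in the cluster led by C1qa, C1qb and Spp1, Ctsc, Ctss and Ctsz in the Ccl12 cluster, and Ctsl at 1907 in the cluster led by Arg1 and Ccl24. The highest Ctsk level, 177, rests mainly on 1 barcode.

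The share of these clusters differed between libraries. The Arg1 and Ccl24 cluster made up 37.4%, 39.8%, 53.9%, 48.1%, 4.0% and 2.2% of the class. The lipid-handling cluster made up 6.2%, 5.0%, 1.6%, 3.9%, 24.7% and 12.9%, and the interferon-responding cluster 0.4%, 0.4%, 1.3%, 1.5%, 23.1% and 6.9%. In KO 72 h 45.7% of the class lay in a cluster with 86.8% of its cells from that library. Ratios within a cluster held the makeup fixed as far as clusters do. In WT, 72 h against 24 h could be compared in the Arg1 and the classical monocyte-like clusters, where Ctsd was 2.65-fold and 2.88-fold higher and Ctsb 2.04-fold and 2.06-fold. In KO, Ctsb was 1.74-fold to 3.02-fold higher in 4 of 4 clusters, and Ctsd was called in 3 of 4, at 1.31-fold to 2.60-fold. Ctsl was within 1.5-fold in both WT clusters and lower in 2 of 4 in KO. For KO against WT at 24 h, Ctsd was called higher in 3 of 3 clusters, at 1.53-fold to 1.99-fold. At 72 h it was called lower in 1 of 7 clusters, at ratios of 0.484 to 0.954, and Ctsl in 2 of 7, at 0.464 to 0.971. Ctsl at 24 h against sham in WT ran from 0.878 in the classical monocyte-like cluster to 2.01 in the resident macrophage-like one.

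Neutrophils, the first white cells to enter an infarct, gave a different picture. Ctsd was at 1309.5, 1547, 879, 1432, 929 and 848 CPM. This was 96.0% to 118% of the macrophage level at sham and at 24 h, but 29.9% of it in WT and 42.1% in KO at 72 h. Ctsa was at 155, 131, 42.5, 72.3, 267 and 249.8, lowest in the 24 h libraries and highest in the 72 h ones in both genotypes. Against sham, the 24 h level was 0.275 [0.228, 0.330] in WT and 0.552 in KO. Against 24 h, the 72 h level was 6.28-fold [5.31, 7.45] in WT and 3.45-fold [2.96, 4.02] in KO. Ctss was at 132, 118, 141, 106, 309 and 414 and differed in the same direction, by 2.19-fold [1.96, 2.45] in WT and 3.91-fold [3.46, 4.41] in KO. Ctsb was at 715, 790.4, 339, 533, 419.9 and 506 and was at 0.474 of sham at 24 h in WT.

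In neutrophils 2 of 8 tested members were lower at 24 h than at sham in WT, where 24.4% of genes were lower and 10.3% higher, and 1 of 8 in KO, where 15.8% were lower and 6.64% higher. At 72 h against 24 h, 2 of 8 were higher and Ctsc was lower at 0.651 in WT, where 48.1% of genes were higher and 12.3% lower. In KO 2 of 8 were higher and Ctsd was lower at 0.592, where 46.6% of genes were higher and 10.3% lower. These shares of members lie below the share of all genes that were higher. Between genotypes, Ctsa (1.70), Ctsd (1.63) and Ctsb (1.57) were higher in KO at 24 h, where 9.66% of genes were higher and 5.79% lower. None was called at sham, where 5.25% were higher and 3.93% lower, and Ctsc (2.36) was the member called at 72 h, where 5.71% were higher and 4.69% lower. The 24 h libraries drew on a neutrophil cluster with Ctsa at 36.3, while the cluster that held most neutrophils at the other times had it at 186. Within the latter cluster Ctsa was at 177, 166, 78.2, 125, 301 and 271, so the order of the times was the same there, and the WT ratio of 72 h to 24 h was 3.85 [2.85, 5.31]. In neutrophils the 12 macrophage markers summed to 1893, 1325, 949, 1135, 1936 and 2529 CPM, lowest in the 24 h libraries and higher at 72 h, the same direction as Ctsa and Ctss at 72 h against 24 h. Their part in these differences was not tested.

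Fibroblasts, the matrix-making cells of the heart, had the highest Ctsk levels of the classes. Levels of Ctsk were 47.6, 44.4, 42.6, 35.8, 90.4 and 41.9. At least 1 Ctsk UMI was seen in 28.4% to 51.3% of fibroblasts in 5 libraries and in 6.94% in KO 72 h, whose fibroblasts had a median of 1065 UMIs. In monocytes/macrophages the share was 0.717% to 3.69%, and in B cells, which should lack the gene, 0% to 0.806%. In WT, Ctsk was 2.12-fold higher at 72 h than at 24 h, and at 72 h the KO level was 0.463 of WT. The WT 72 h library held 150 fibroblasts, of which 46 lay outside clusters made mostly of KO 72 h cells. Ctsl was at 677, 773, 938, 618, 552 and 559 in fibroblasts, and at 72 h it was 0.588 of the 24 h level in WT.

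The remaining fibroblast levels were set apart mainly by KO 72 h. Ctss was at 2.2, 10.5, 21.9, 15.6, 35.1 and 849 CPM, Ctsc at 9.8, 18.4, 20.3, 16.4, 44.8 and 392, and Ctsb at 352, 417, 324, 288, 287 and 1389.9. In the same 6 libraries the 12 macrophage markers summed to 116, 321, 130, 252, 658 and 7949 CPM. The markers were higher in WT 72 h than in WT 24 h and in KO sham than in WT sham. Ctsc and Ctss differed in the same direction there, and all were highest in KO 72 h. From WT sham to WT 24 h the markers went from 116 to 130 CPM, Ctss from 2.2 to 21.9 and Ctsc from 9.8 to 20.3. From KO sham to KO 24 h the markers and Ctsc were lower and Ctss higher. At 24 h the markers were higher in KO than in WT, and Ctsc and Ctss lower. The part of the markers in these levels was not tested. As a percent of the macrophage level in KO 72 h, the markers in fibroblasts were at 36.5%, Ctss at 36.5%, Ctsc at 37.7%, Ctsb at 42.5%, Ctsd at 46.7% and Ctsl at 78.3%. In the other 5 libraries Ctss was at 0.165% to 1.58% and the markers at 0.560% to 2.71%, but Ctsl at 37.4% to 72.2%. In KO 72 h thus 7 of 9 members were higher than at 24 h, where 16% of genes were higher and 22.6% lower, and 7 higher than in WT 72 h, where 15.6% were higher and 13.6% lower. The KO 72 h fibroblasts lay mainly in 2 clusters that were not alike. The cluster led by Dcn and Dpt had 368 of its 397 cells from KO 72 h. There Ctss was at 1530, Ctsb at 2667 and Ctsd at 1768 CPM. The cluster led by Col1a1 and Col3a1 had 850 of 965 cells from KO 72 h, with the same genes at 193, 412 and 277. These cluster levels pool libraries. With the clusters mostly of the KO 72 h library left out, 35 KO 72 h fibroblasts remained, too few for a level. In WT, Ctsc (2.07) and Ctss (9.91) were higher and Ctsh (0.60) lower at 24 h than at sham, where 12.1% of genes were higher and 15.3% lower. At 72 h against 24 h in WT, Ctsc, Ctsh, Ctsk and Ctss were higher and Ctsl lower, where 13% of genes were higher and 32.6% lower. In KO, Ctsd (0.599) and Ctsh (0.584) were lower at 24 h than at sham, where 25.2% of genes were lower and 10.5% higher. KO was above WT for Ctsc (1.88) and Ctss (4.78) at sham, where 4.71% of genes were higher and 3.5% lower, and below it for Ctsl (0.659) at 24 h, where 11.7% were lower and 2.68% higher. With doublets kept, Ctsc and Ctss at 24 h against sham in WT and Ctsc between genotypes at sham lay on the other side of 1, at low levels throughout. Between genotypes at sham, Ctss was at 0.736 as the mean over cells, and Ctsc lay below 1 without clusters mostly of 1 library.

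Endothelial cells, which line the vessels, showed the same split. Ctss was at 7.6, 4.2, 6.2, 14.3, 68.5 and 478 CPM and Ctsc at 6.7, 4.1, 4.7, 13, 27.9 and 205. The markers of macrophages summed to 138, 87.5, 87.3, 208, 297 and 3927 CPM in these cells, so they too were higher at 72 h than at 24 h in each genotype. In that library the markers in endothelial cells were at 18.0% of their macrophage level, and Ctss was at 20.6%, Ctsc at 19.7%, Ctsb at 23.0% and Ctsd at 26.0% of the macrophage level, but Ctsl at 74.7%. Ctsl was at 448, 438, 497, 443, 698 and 533, and no endothelial comparison called it. In WT, 5 members were higher at 72 h than at 24 h, where 9.11% of genes were higher and 23.1% lower, with Ctss at 11-fold [6.80, 18.8], Ctsc at 5.99-fold and Ctsb at 2.13-fold. In KO 6 were higher, where 9.76% of genes were higher and 20.1% lower, and 7 were higher in KO than in WT at 72 h, where 7.16% were higher and 8.3% lower. The part of macrophage RNA in these values was not tested.

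**Figure D5:**
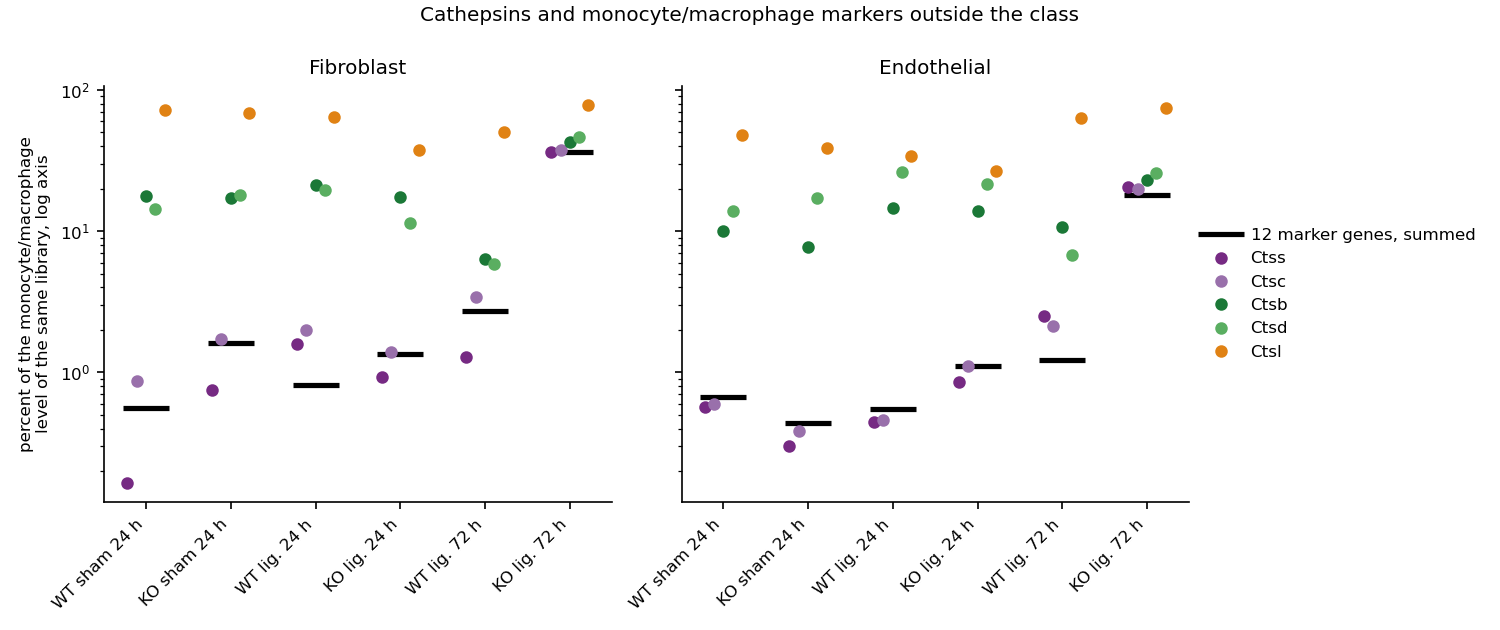
Levels of 5 cathepsins (points) and of the 12 summed monocyte/macrophage markers (bars) in fibroblasts and endothelial cells, as a percent of the monocyte/macrophage level of the same library (log axis). In KO 72 h Ctss and the markers both stand at 36.5% in fibroblasts, and at 20.6% and 18.0% in endothelial cells, above the other 5 libraries, while Ctsl lies between 26.8% and 78.3% in all 6.

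At the earlier times endothelial differences were smaller and rested on low levels. In KO at 24 h against sham, Ctsc (3.17), Ctsh (2.02), Ctsk (2.66) and Ctss (3.41) were higher, where 9.92% of genes were higher and 7.46% lower. In WT no member was called, where 10.1% of genes were higher and 8.32% lower. At sham, KO was below WT for Ctsc (0.613), Ctsk (0.424) and Ctss (0.551), where 4.98% of genes were lower and 1.74% higher. At 24 h, KO was above WT for Ctsh (1.87) and Ctss (2.30), where 3.55% of genes were higher and 7.41% lower, and the Ctss ratio lay below 1 when doublets were kept. The macrophage markers differed in the same direction in each of these 3 comparisons. They were at 208 in KO 24 h against 87.5 in KO sham, 87.5 in KO sham against 138 in WT sham, and 208 in KO 24 h against 87.3 in WT 24 h. Endothelial Ctsk was itself above the macrophage level, at 991% of it in WT sham, 202% in KO sham and 704% in KO 24 h. One endothelial cluster, of 411 cells led by Vwf, Cytl1, Emcn, H19 and Npr3, carried most of the endothelial Ctsh and Ctsk. There Ctsh was at 968 and Ctsk at 82.4 CPM, while the other endothelial clusters had Ctsh at 4.0 to 73.1 and Ctsk at 0 to 1.9. This cluster held 110 of 2363 endothelial cells in WT sham, 113 of 3100 in KO sham, 33 of 734 in WT 24 h and 37 of 760 in KO 24 h. The part of its share in the differences of Ctsh and Ctsk was not tested. In WT sham, KO sham and KO 72 h, where the cluster had enough cells, Ctsh was at 1045, 1124 and 562 and Ctsk at 101, 65.4 and 63.9.

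The genes around the cathepsins in monocytes and macrophages were read from lists of inhibitors, sorting factors and lysosomal genes. Other lysosomal hydrolases differed in the same direction as most members. In WT 16 of 24 were higher at 72 h than at 24 h and none lower, with a median log2 ratio of 1.02. In KO 13 of 24 were higher and none lower. Of all genes, 20.8% were higher and 17.4% lower in WT, and 18.9% higher and 6.78% lower in KO. At 24 h against sham, 5 of 24 in WT and 4 of 24 in KO were lower and none higher, where 11.8% and 24.4% of all genes were lower, so the KO count lies below that share. Between genotypes at 72 h none of the 24 was called, with a median of -0.26, where 8.12% of all genes were higher and 3.01% lower. Of 10 genes of sorting and activation, 3 were higher at 72 h in WT and 2 in KO, near the shares of all genes. Lgmn, the asparagine endopeptidase that activates several cathepsins, was at 717.5, 802.5, 649, 795, 1694 and 1271.5 CPM, again highest in both 72 h libraries. The mannose 6-phosphate receptors ranged between 136 and 160 for M6pr and between 23.0 and 35.4 for Igf2r. Of 9 lysosomal membrane genes 3 were higher at 72 h in WT and 0 in KO, and of the proton pump genes 4 of 16 were higher and 1 lower in WT, against 0 of 15 higher and 1 lower in KO. The WT counts of both lists are near the share of all genes that were higher. The 1 lower proton pump gene in each genotype stands beside 17.4% of all genes lower in WT and 6.78% in KO. None of the regulators Tfeb, Tfe3 and Mitf was called higher at 72 h, and Tfe3 was lower in WT (0.634). Levels of Tfeb were 13.8 to 21.1, of Tfe3 31.8 to 54.8 and of Mitf 22.5 to 40.7.

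Class II genes differed by more. Cd74, the invariant chain that cathepsins trim, was at 2668, 2463, 1243, 1950 and, at 72 h, 3555 and 3857 CPM. At 24 h against sham 5 of 6 class II genes were lower in WT and 3 of 6 in KO, beside 11.8% and 24.4% of all genes, with H2-Eb1 lowest at 0.276 and 0.449. At 72 h against 24 h 5 of 6 were higher in each genotype, beside 20.8% and 18.9% of all genes, with H2-Eb1 at 4.06-fold and 3.23-fold. H2-Ab1 was 1.78-fold and H2-Aa 1.62-fold higher in KO than in WT at 24 h. Acp5 had the highest WT ratio of the lists at 72 h, 4.67-fold, and its WT 72 h level includes the 207 UMIs of the barcode rich in Ctsk. Of the inhibitors, Cst3, the secreted cystatin C, was at 2073, 1985, 1432, 1775, 2272 and 2358, and Cstb, which stays inside cells, at 1029.5, 1186, 1373, 1519, 1554 and 1376. In KO at 24 h against sham all 4 serpins tested were lower, with Serpinb6a at 0.514, where 24.4% of all genes were lower. In neutrophils the stefins Stfa2l1 (272 to 589) and Stfa1 (43.8 to 109) were measured, and Cst3 ran from 780 to 3027, highest in the 72 h libraries.

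For each member, the gene outside the 9 whose log2 level was most like it was found over the 36 sums and 7130 genes. These were Ntpcr for Ctsa (r of 0.925), Grn for Ctsb (0.946), Pycard for Ctsc (0.94), C5ar1 for Ctsd (0.910) and Pld4 for Ctsh (0.893). For Ctsk it was Col5a2 (0.936), a fibrillar collagen gene, for Ctsl Emp1 (0.905), for Ctss Plac8 (0.959), itself a marker used for naming, and for Ctsz Ms4a6c (0.903). The sums come from 13 classes in 6 libraries, so sums of 1 class or 1 library are not independent points, and the correlations carry no test.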

How the data were processed

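Single-cell RNA was read with 10x Genomics 3' chemistry in 6 libraries, 1 for each genotype, operation and time. The deposited matrices hold raw UMI counts per gene and cell, which the authors made with Cell Ranger 6.0.0 on the mm10 build, per the submitters' processing notes. The matrices were already filtered to cells of at least 500 UMIs, as the values show, and the annotation release is not given in the sources used here.

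Cells with at least 200 genes and at most 20% mitochondrial UMIs were used. Doublets were scored with Scrublet (in scanpy 1.11.5) and the top 0.8% per 1000 cells of each library were removed (1653 cells). Counts were scaled to 10000 per cell and clustered over 2000 variable genes, without the 9 cathepsins, Trpm4, mitochondrial, ribosomal protein and hemoglobin genes (30 components, 20 neighbours, Leiden resolution 1, leidenalg 0.10.2). Of 39 clusters, 1 of 39 cells stayed unnamed, and the others gave 13 marker-defined classes. UMIs were summed per library and class and scaled to CPM (per 1000000 UMIs) in classes with at least 50 cells, and 7 comparisons were made in monocytes/macrophages, neutrophils, fibroblasts and endothelial cells. A ratio of at least 1.5-fold with at least 50 UMIs in the pair was called, with a count of 0 set to 3. With 1 library per group no test across samples was possible. Ratio calling was tested on simulated data. Tools were scipy 1.17.1, numpy 2.4.6 and pandas 2.3.3.

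Named genes were the 9 members, all inhibitors, Lgmn, M6pr, Igf2r, Tfeb, Tfe3, Mitf, Cd74, the 2 highest and 2 lowest ratios of the pathway lists in macrophages per comparison (at least 50 CPM in the higher library), and, for each member, the 2 genes most like it in log2(level + 10) over sums of at least 100 cells, of which the first is printed. Genes of the barcode rich in Ctsk and cluster leading genes were named after their values were seen. The members and lists were chosen with earlier results of these data known. Alternatives were 11 planned settings and 2 added after seeing the data.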

Additional observations from a re-analysis of the deposited data

Results flagged for a closer look

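In monocytes/macrophages the KO to WT ratio of Ctsd was 1.60 at 24 h after ligation and 0.647 at 72 h, so the single libraries lay on opposite sides at the 2 times. The difference between the times was not tested, with 1 library per group.

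In endothelial cells the KO to WT ratio of Ctsc was 0.613 at sham and 7.35 at 72 h. The ratio of Ctss was 0.551 at sham, 2.30 at 24 h and 6.98 at 72 h, again on opposite sides, and these differences were not tested. The sham levels were low, at 6.7 and 4.1 CPM for Ctsc and 7.6 and 4.2 for Ctss. Macrophage markers in endothelial cells summed to 138 and 87.5 CPM in WT and KO at sham, 87.3 and 208 at 24 h and 297 and 3927 at 72 h, in the same direction as these ratios at each time, and their part in them was not tested.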

How the results depend on the processing

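No paired analysis was possible because each group is 1 library, and for the same reason no library could be left out as a replicate. Of 36 pairs of a member and a class, those with at least 50 UMIs were tested, 239 over the 7 comparisons. At 24 h against sham the calls were 3 higher and 4 lower in WT and 4 and 3 in KO. At 72 h against 24 h they were 17 and 2 in WT and 19 and 2 in KO. For KO against WT they were 2 and 3 at sham, 7 and 1 at 24 h and 15 and 4 at 72 h. The shares of all genes called, 1.45% to 48.1%, stand above beside the members of each class and comparison. Such shares under the alternative settings are not given here. The cause of the moves below was not tested unless named. A fold of 2 calls fewer by construction: 2 lower at 24 h in WT, 0 lower in KO, 0 lower at 72 h in WT and 1 lower in KO, and between genotypes 1 higher and 1 lower at sham, 1 higher and 0 lower at 24 h and 2 lower at 72 h. Thinning to 1000 UMIs leaves out shallower cells and gave 1 higher at 24 h in each genotype, 9 higher and 0 lower at 72 h in WT, and between genotypes 0 higher and 1 lower at sham, 4 higher and 0 lower at 24 h and 0 lower at 72 h. Without doublet removal there was 1 higher at 24 h in WT, 1 lower at 72 h in each genotype, and between genotypes 0 higher and 1 lower at sham and 0 lower at 24 h. Leiden resolution 2 gave 7 lower at 24 h in WT, 1 lower at 72 h in WT and 1 higher between genotypes at sham. Ratios relative to the median gene gave 7 higher and 1 lower at 24 h in KO, 4 lower at 72 h in KO and 0 lower between genotypes at 24 h. The mean over cells gave 1 lower at 72 h in WT, 0 higher between genotypes at sham and 2 lower at 72 h. With mitochondrial, ribosomal protein and hemoglobin genes left out there was 1 lower at 72 h in WT and 0 lower between genotypes at 24 h, and with the cathepsins kept for clustering 1 lower at 72 h in WT. Without clusters mostly of 1 library, chosen after seeing the data, 12 were higher at 72 h in KO and 1 lower in WT, and between genotypes 0 were higher at sham, 0 lower at 24 h and 8 higher and 2 lower at 72 h; fibroblasts were then too few at 72 h to compare.

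Of 86 called ratios, 85 kept their call at Leiden resolution 0.5, 79 of 85 at resolution 2, 67 without doublet removal, 74 as the mean over cells, 53 of 63 when thinned and 62 of 65 without clusters mostly of 1 library. Log2 ratios that turned were those of Ctsc (-0.17) and Ctss (-0.30) in fibroblasts at 24 h in WT with doublets kept, and of Ctsc in fibroblasts of KO against WT at sham (-0.46 with doublets kept, -0.17 without clusters mostly of 1 library). Others were Ctss in fibroblasts at sham (-0.44, mean over cells), Ctss in endothelial cells at 24 h (-0.34, doublets kept) and Ctsk in macrophages at 72 h (0.28 without clusters mostly of 1 library, 0.29 without the barcode richest in Ctsk). In macrophages, Ctsb (2.54-fold to 4.77-fold) and Ctsd (3.64-fold to 7.22-fold) at 72 h against 24 h in WT were called in all 13 settings. Ctsl at 72 h against 24 h was 0.838 in KO and 1.61 in WT with doublets kept. Clusters of 2308 and 96 cells with Arg1 among their leading genes were then unnamed. Ctsd in KO against WT at 72 h was 0.706 when thinned. The KO 72 h library was the shallowest, with 53.9% of its cells under 1500 UMIs.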
